A study of Mus musculus with 8 samples.

Results

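Guanine deaminase (Gda) and 6 further enzymes of purine breakdown and salvage, Xdh, Ada, Nt5e, Hprt, Aprt and Adk, were followed in cultured glomerular epithelial cells. The 7 genes were taken from a list of array identifiers given with their symbols: ENSMUSG00000058624_at for Gda, ENSMUSG00000024066_at for Xdh, ENSMUSG00000017697_at for Ada, ENSMUSG00000032420_at for Nt5e, ENSMUSG00000025630_at for Hprt, ENSMUSG00000006589_at for Aprt and ENSMUSG00000039197_at for Adk. All 7 were found among the 22237 genes measured. The list, which opens with Gda, was chosen by levels seen on these arrays, and which of them decided is not recorded. All levels and differences of the 7 genes are therefore given as a description, with no p-value. Their calls by a fit over all genes use the same levels, so they describe the list and are not evidence for it. Gda was dim in RPMI in both cell types. It was at least 16.6-fold higher in podocytes kept in EGM-MV, and less so in parietal epithelial cells (PECs).

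The arrays compared PECs, which line Bowman's capsule, with podocytes, which cover the glomerular capillaries, each kept in RPMI or in EGM-MV. There were 8 arrays in 4 groups of 2, and each cell type was represented by 2 independent cultures that were kept in both media. PECs came from glomeruli with their capsule, taken from mice of the line PEC-rtTA/LC1/R26R, in which a podocalyxin promoter of the rabbit drives the doxycycline-dependent transactivator. Podocytes came from glomeruli without capsule of the line Pod-rtTA/LC1/R26R. All mice were female, had a mixed background with 75% Sv129, and had received doxycycline, which turned on Cre and, permanently, beta-galactosidase in the tagged cells. The mice were adult, and no exact age was found in the sources used here. Tagged cells were sorted from outgrowths by a fluorescent product of beta-galactosidase. All outgrowths had been started in EGM-MV, and RNA was taken after repeated passages. RPMI is a basal medium, while EGM-MV is made for microvascular endothelial cells and contains growth factors. Both carried fetal calf serum, with the higher share in EGM-MV. Growth factors, serum and the other components of the media cannot be told apart in a difference between media. Mouse line and the kind of glomeruli plated went with the cell type, and their parts in it cannot be told apart.

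Purine bases and nucleosides are either broken down to xanthine and uric acid or salvaged into nucleotides. Gda removes the amino group of guanine and gives xanthine, and xanthine dehydrogenase (Xdh) oxidises hypoxanthine and xanthine further. Nt5e, also known as CD73, sits on the cell surface and makes adenosine from extracellular AMP. Adenosine deaminase (Ada) turns adenosine into inosine, and adenosine kinase (Adk) turns it back into AMP. Hprt and Aprt are the phosphoribosyltransferases that return hypoxanthine and guanine, or adenine, to the nucleotide pool. In the kidney, adenosine made outside the cell is known for its part in the feedback from tubule to glomerulus.

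Levels are log2 intensities in arbitrary units, so a difference of 1 is a doubling. They are comparable between arrays for 1 gene and not between genes. A level of 6 was taken as dim, and the median of the arrays lay between 6.21 and 6.32. Replicate arrays correlated across genes at r = 0.991 to 0.998. PEC replicates were at least 2-fold apart in 210 genes in RPMI and 187 in EGM-MV, podocyte replicates in 5 and 2. The labelled cell types were not checked against their marker genes here, because the identifiers of the other genes were not paired with symbols. In RNA from a whole culture, fewer cells that express a gene and less RNA per cell cannot be told apart.

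The start regions are shown of Gda and Nt5e, which differed most between the media in podocytes, and of Hprt and Aprt, which moved together. The sequences are those of RefSeq on build GRCm38.p6 and run from 250 bases before to 50 bases after the annotated start. They lie at chr19:21472612-21472911 on the minus strand for Gda, chr9:88327359-88327658 on the plus strand for Nt5e, chrX:52987828-52988127 on the plus strand for Hprt and chr8:122576858-122577157 on the minus strand for Aprt. Capitals mark matches on either strand to the TATA box (TATAAA), the CCAAT box (CCAAT), the GC box (GGGCGG), the E-box (CACGTG) and the AP-1 site (TGANTCA).
Gda: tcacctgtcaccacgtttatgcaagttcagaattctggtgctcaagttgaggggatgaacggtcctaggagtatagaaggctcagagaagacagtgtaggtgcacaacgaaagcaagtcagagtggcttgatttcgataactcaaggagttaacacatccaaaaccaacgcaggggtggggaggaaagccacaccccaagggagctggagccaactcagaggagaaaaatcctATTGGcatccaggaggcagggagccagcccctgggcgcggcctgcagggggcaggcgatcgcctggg
Nt5e: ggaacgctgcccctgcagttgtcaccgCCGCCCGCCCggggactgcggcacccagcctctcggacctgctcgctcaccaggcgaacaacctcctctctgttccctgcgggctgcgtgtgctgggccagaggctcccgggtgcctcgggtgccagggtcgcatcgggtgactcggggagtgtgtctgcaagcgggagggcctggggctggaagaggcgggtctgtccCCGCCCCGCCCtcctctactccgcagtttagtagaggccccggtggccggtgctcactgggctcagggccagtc
Hprt: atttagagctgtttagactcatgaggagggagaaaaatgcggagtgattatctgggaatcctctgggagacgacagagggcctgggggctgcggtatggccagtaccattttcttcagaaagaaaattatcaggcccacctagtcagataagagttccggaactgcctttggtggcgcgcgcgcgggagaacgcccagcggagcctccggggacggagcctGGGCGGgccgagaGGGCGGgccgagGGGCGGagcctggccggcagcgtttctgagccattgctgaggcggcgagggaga
Aprt: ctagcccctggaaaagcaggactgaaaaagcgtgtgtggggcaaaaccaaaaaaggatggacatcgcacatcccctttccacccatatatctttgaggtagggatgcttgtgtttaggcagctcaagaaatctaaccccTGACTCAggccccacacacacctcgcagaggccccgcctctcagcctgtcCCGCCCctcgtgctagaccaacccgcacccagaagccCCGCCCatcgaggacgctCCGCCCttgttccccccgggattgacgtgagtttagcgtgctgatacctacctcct

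An entry was found for 6 of the 7 genes (Gda, Ada, Nt5e, Hprt, Aprt and Adk, the last with 2 starts). The Gda window held 1 match, a CCAAT box at −17 (first base, with −1 the base before the start), and 0 GC boxes. GC boxes were found 2 times in Ada, 4 times in Nt5e, 3 times each in Hprt and Aprt, and 4 times at each start of Adk, where overlapping matches were counted separately. The single AP-1 match lay in Aprt, at −111. Among 32851 windows of the same length in that table, 35.7% held a GC box, 37.4% a CCAAT box, 13.6% a TATA box, 7.81% an AP-1 site and 7.15% an E-box. Among the windows of the purine genes, that of Gda had the fewest CpG dinucleotides, 9 in 300 bases with a ratio of observed to expected of 0.41, against 22 and 0.84 in Hprt. Within the whole table the ratio of Gda lay at percentile 51.9. A match is a run of letters and was not tested as a binding site.

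Gda had the highest level in podocytes in EGM-MV and was dim in RPMI. In podocytes it read 5.44 in RPMI and 10.04 in EGM-MV for replicate 1, and 5.55 and 10.06 for replicate 2. In PECs the corresponding levels were 5.18 and 7.02 for replicate 1, and 5.16 and 6.77 for replicate 2. The media did not overlap in either cell type, and in EGM-MV both podocyte arrays lay above both PEC arrays. From the lowest up, the group means were 5.17 ± 0.02 for PECs and 5.49 ± 0.08 for podocytes in RPMI, then 6.89 ± 0.18 for PECs and 10.05 ± 0.02 for podocytes in EGM-MV (SD, n = 2). In this order each group lay above the one before with no overlap, although the RPMI groups were both below 6 and no fold is given between them (0.32 ± 0.10 on the log2 scale, SE).

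**Figure D1:**
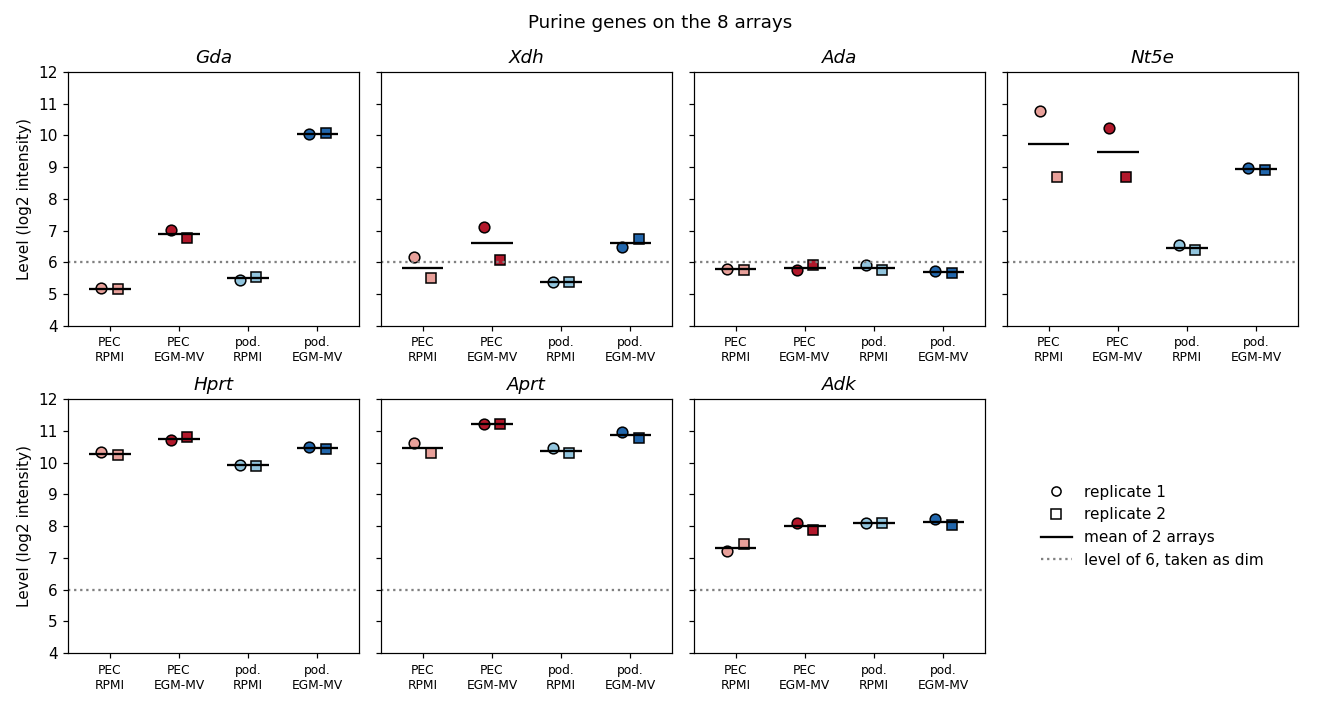
Levels (log2 intensity) of the 7 purine genes on the 8 arrays by cell type (pod., podocyte) and medium, with replicate 1 as circles, replicate 2 as squares and the mean of 2 arrays as a bar. Gda lay below 6 on all RPMI arrays and at 10.04 and 10.06 in podocytes in EGM-MV, while Nt5e differed between the PEC replicates in both media.

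The medium effect on Gda in podocytes was 4.56 ± 0.10 (log2, SE), or at least 16.6-fold with the dim RPMI mean set to 6. It ranked 3 of 22237 genes for a higher level in EGM-MV in podocytes. In PECs the effect was 1.72 ± 0.10, or at least 1.86-fold, and ranked 55 of 22237. The effect in podocytes exceeded that in PECs by 2.83 ± 0.14 on the log2 scale. In EGM-MV Gda was 8.91-fold higher in podocytes than in PECs (3.16 ± 0.10). Within the single cultures EGM-MV was above RPMI by 4.60 and 4.52 in podocytes and 1.84 and 1.61 in PECs, so the cell types did not overlap in their response.

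Xdh, the enzyme after Gda in the path to uric acid, also read higher in EGM-MV in each culture. In podocytes its levels were 5.38 in RPMI on both arrays, and 6.47 and 6.75 in EGM-MV for replicates 1 and 2. In PECs replicate 1 read 6.15 in RPMI and 7.11 in EGM-MV, and replicate 2 read 5.51 and 6.08. Apart from PEC replicate 1, the RPMI arrays lay below 6, and PEC replicate 2 in EGM-MV was barely above it. The gene was thus near the dim level. The media were separate in podocytes but overlapped in PECs, since replicate 1 in RPMI lay above replicate 2 in EGM-MV. The medium effect was 1.23 ± 0.33 in podocytes (log2, SE), or at least 1.53-fold with the RPMI mean set to 6, and 0.76 ± 0.33 in PECs. This SE pools all 4 groups and came mainly from the PEC cultures. Their SD was 0.45 in RPMI and 0.73 in EGM-MV, against 0.002 and 0.19 in podocytes. In PECs the medium effect was 0.25 without EGM-MV replicate 1 and 1.28 without EGM-MV replicate 2. The PEC cultures stood 2.04-fold apart in EGM-MV, a replicate difference larger than that of 99.2% of genes. Between podocytes and PECs in EGM-MV the difference was 0.02 ± 0.33 with overlapping arrays, and its sign turned without PEC EGM-MV replicate 2 (−0.50), without podocyte EGM-MV replicate 2 (−0.12) or with quantile normalization repeated (−0.0055).

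Nt5e, the surface enzyme that makes adenosine, was high in PECs in both media and moved with the medium in podocytes. In podocytes it read 6.55 and 6.38 in RPMI (replicates 1 and 2) and 8.98 and 8.89 in EGM-MV. In PECs it read 10.76 and 8.69 in RPMI and 10.24 and 8.70 in EGM-MV. The podocyte media were thus far apart and the replicates close, whereas in PECs the cultures differed and the media did not separate. The medium effect in podocytes was 2.47 ± 0.67 (log2, SE), or 5.56-fold, and ranked 31 of 22237 for a rise. The SE rests on the spread over all 4 groups, which for Nt5e came mainly from the PEC cultures. In PECs the effect was −0.26 ± 0.67, and its sign turned without PEC RPMI replicate 1 (0.78) or without PEC EGM-MV replicate 2 (0.51).

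In RPMI, the difference of Nt5e between podocytes and PECs was −3.27 ± 0.67 (log2, SE), or 9.61-fold lower, and no podocyte array reached a PEC array. It was −2.23 without PEC RPMI replicate 1 and −4.30 without PEC RPMI replicate 2, and its call by limma (adjusted p below 0.05 over all genes) was lost without podocyte RPMI replicate 1 or 2. The methods' t-test did not call it. In EGM-MV the difference was −0.53 ± 0.67 and the arrays overlapped, with the podocyte arrays between the PEC replicates. Without PEC EGM-MV replicate 1 it was 0.23, and without PEC EGM-MV replicate 2 it was −1.30. PEC replicate 1 was 4.22-fold above replicate 2 in RPMI and 2.90-fold above it in EGM-MV. These differences ranked 28 and 52 by size among the 22215 genes with labelled replicates. Which of the PEC cultures is nearer to other PECs cannot be read from 2 cultures.

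Ada, which competes with Adk for adenosine, was dim throughout. Its 8 arrays lay between 5.66 and 5.91, all below 6, so that no fold is given. The largest of its differences between groups was −0.15 ± 0.09 (log2, SE), for the media in podocytes. Its SD over the 8 arrays was 0.086, the lowest of the 7 genes.

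Hprt and Aprt, the base salvage enzymes, were higher in EGM-MV in both cell types. In PECs Hprt read 10.34 and 10.23 in RPMI (replicates 1 and 2) and 10.71 and 10.79 in EGM-MV. In podocytes it read 9.93 and 9.89 in RPMI and 10.49 and 10.43 in EGM-MV. Its media did not overlap in either cell type, and podocytes lay below PECs in each medium. The medium effect was 0.47 ± 0.08 in PECs (log2, SE) and 0.55 ± 0.08 in podocytes, or 1.39-fold and 1.46-fold. The effects differed by 0.08 ± 0.11 between the cell types. Podocytes minus PECs gave −0.37 ± 0.08 in RPMI and −0.29 ± 0.08 in EGM-MV.

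Aprt, which acts on adenine, read 10.61 and 10.30 in PECs in RPMI (replicates 1 and 2) and 11.21 and 11.20 in EGM-MV. In podocytes its levels were 10.45 and 10.30 in RPMI, then 10.95 and 10.79 in EGM-MV. The media were again separate in both cell types. The medium effect was 0.75 ± 0.12 in PECs (log2, SE) and 0.50 ± 0.12 in podocytes, or 1.68-fold and 1.41-fold. Paired by replicate number it was 0.60 and 0.90 in PECs and 0.51 and 0.49 in podocytes. The cell types did not overlap in these paired effects, which depends on the pairing, and the pairing was not checked. The separation of the media does not depend on it. Between the cell types it differed by −0.26 ± 0.17 (podocytes minus PECs), from −0.41 to −0.10 with 1 array left out. The cell types overlapped in RPMI and were separate in EGM-MV, where podocytes minus PECs gave −0.33 ± 0.12. Across the 8 arrays Hprt and Aprt correlated at r = 0.92 (Spearman's rho = 0.90), the highest of the 21 pairs among the 7 genes. The 8 arrays share 4 cultures and 2 media, so the correlation is a description of these arrays.

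Adk, the kinase that returns adenosine to AMP, followed the medium in PECs and stayed level in podocytes. PEC replicates 1 and 2 read 7.23 and 7.42 in RPMI, then 8.09 and 7.89 in EGM-MV. Podocyte replicates read 8.10 and 8.11 in RPMI, then 8.21 and 8.03 in EGM-MV. The PEC arrays in RPMI stood apart, below the other 6. The medium effect was 0.67 ± 0.11 in PECs (log2, SE), or 1.59-fold, and 0.02 ± 0.11 in podocytes, where its sign turned with either rescaling of the arrays (−0.024 and −0.0095) or without podocyte EGM-MV replicate 1 (−0.072). Podocytes were above PECs by 0.78 ± 0.11 in RPMI and by 0.13 ± 0.11 in EGM-MV. Between the cell types the effect differed by −0.65 ± 0.16 (podocytes minus PECs), opposite in direction to that of Gda.

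**Figure D2:**
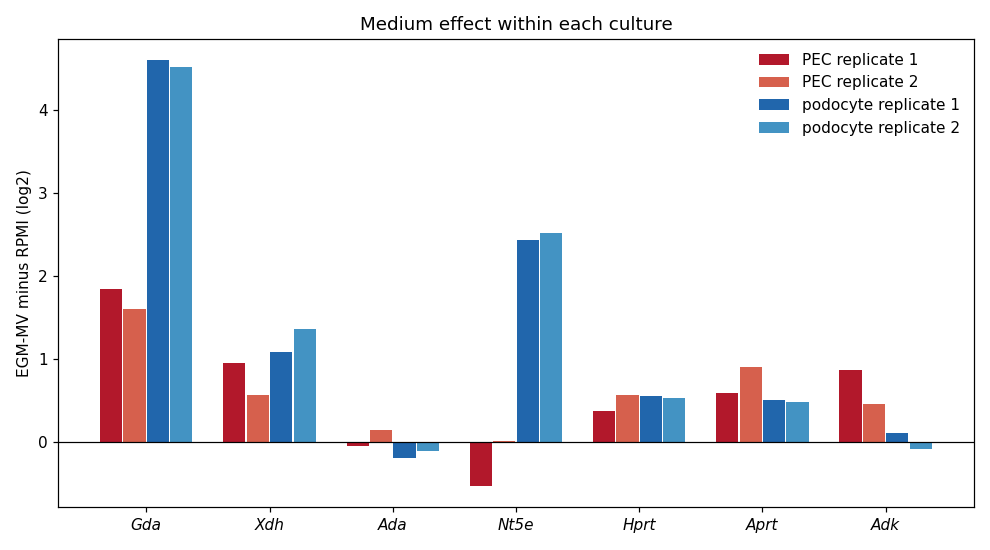
EGM-MV minus RPMI (log2) within each of the 4 cultures for the 7 genes, with PEC cultures in red and podocyte cultures in blue. Gda, Xdh, Hprt and Aprt were higher in EGM-MV in all 4 cultures, Nt5e was 2.43 and 2.52 higher in the podocyte cultures, and Adk 0.87 and 0.46 higher in the PEC cultures.

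As a list, 4 of the 7 genes (Gda, Xdh, Hprt and Aprt) were higher in EGM-MV in all 4 cultures, which held for 18.4% of all genes. The median medium effect of the 7 genes was 0.67 in PECs and 0.55 in podocytes, against −0.012 and −0.0085 over all genes tested. By limma with Benjamini-Hochberg adjustment over all 22237 genes at 0.05, Gda, Hprt, Aprt and Adk (4 of 7) were called in PECs, each higher in EGM-MV. In PECs 12.3% of all genes were called and 7.64% were called higher. In podocytes Gda, Xdh, Hprt and Aprt (4 of 7) were called, each higher, against 13.7% of all genes called and 7.7% called higher. The arrays of the 2 media did not overlap for 4 of the 7 genes in PECs, each higher in EGM-MV, which held in either direction for 54.8% of all genes and in this direction for 25.7%. In podocytes they did not overlap for 6 genes, against 54% of all genes. Of the 6, all but Ada were higher in EGM-MV, a direction seen in 27.2% of all genes. The genes were chosen with levels of these arrays known, so the counts describe the list and support nothing further.

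These calls depended on the fit more than the values did. In podocytes Xdh and Aprt were not called with either rescaling of the arrays, leaving 2 of 7. Without podocyte RPMI replicate 1 or 2, or podocyte EGM-MV replicate 2, 2 of 7 were called, and without podocyte EGM-MV replicate 1 it was 1 of 7 (Gda). Nt5e in podocytes was called, in contrast, without any of the 4 PEC arrays or with dim genes left out. The culture as a replicate block pairs the media by replicate number. With it Nt5e in podocytes and Xdh in PECs were called as well, 5 of 7 in each cell type.

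**Figure D3:**
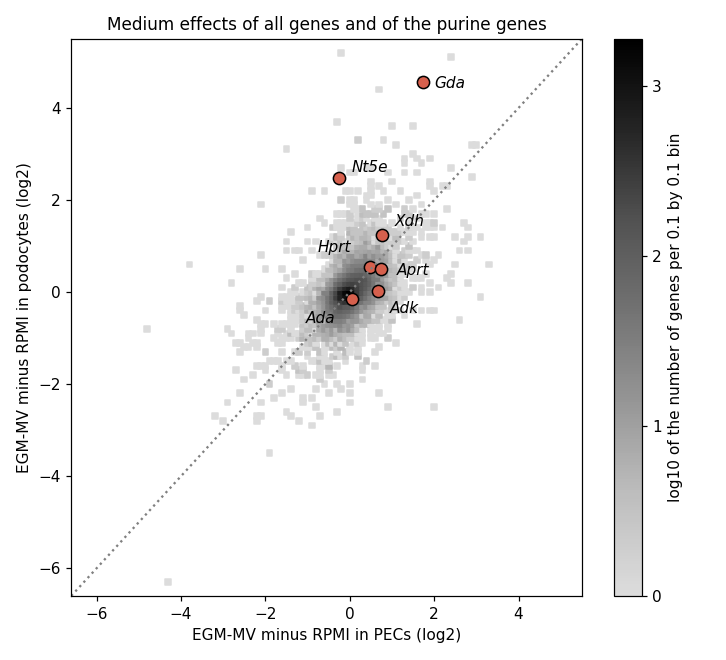
Medium effect (EGM-MV minus RPMI, log2) in podocytes against that in PECs for all genes, shaded by the number of genes per bin, with the 7 purine genes in red and the line of equal effects dotted. Gda (1.72 in PECs, 4.56 in podocytes) and Nt5e (−0.26 and 2.47) lie far above the line, and Adk (0.67 and 0.02) lies below it.

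Between podocytes and PECs the 7 genes had no common direction. In RPMI 3 were higher and 4 lower in podocytes, with a median difference of −0.077 against −0.055 over all genes. Gda and Adk were called higher and Nt5e and Hprt lower (4 of 7), where 28.4% of all genes were called, 15.5% higher and 12.8% lower. The call of Gda, between levels that were both dim, was lost without any 1 of 6 arrays (both PEC arrays in RPMI and the 4 podocyte arrays). In EGM-MV the median difference was −0.14 against −0.048 over all genes, and Gda was called higher and Hprt lower (2 of 7), where 32.2% of all genes were called, 16.6% higher and 15.5% lower. Podocyte and PEC arrays did not overlap for 5 of the 7 genes in RPMI and 4 in EGM-MV, against 62.7% and 70.1% of all genes. Without PEC RPMI replicate 1, or without either podocyte RPMI array, 2 of 7 were called in RPMI, and without PEC EGM-MV replicate 2 or either podocyte EGM-MV array 1 of 7 was called in EGM-MV.

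For the response to the medium, Gda was the 1 gene of 7 called to differ between the cell types, where 2.99% of all genes were called and 1.48% were called with a larger effect in podocytes. Its difference ranked 15 of 22237 for a larger effect in podocytes. The difference for Nt5e had nearly the same size, 2.73 ± 0.95 (log2, SE), and ranked 18. Nt5e was called only with the culture as a replicate block (2 of 7 called) or without PEC RPMI replicate 2. Its difference was 1.69 without PEC RPMI replicate 1 and 3.77 without PEC RPMI replicate 2.

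The genes also differed in where their variation lay. The medium held 66.1% of the variance of Gda over the 8 arrays, the cell type 20.3% and the interaction of both 13.5%, with no more than 0.067% for any difference between cultures. For Hprt the medium held 69.1% and the cell type 29.0%, and for Aprt the medium held 80.5%. Differences between the PEC cultures took 23.5% of the variance of Xdh and 19.5% of that of Nt5e, against 5.66% over all genes. Nt5e and Adk had the cell type as their largest source, at 43.1% and 45.3%. Over all genes the cell type held 60.6% and the medium 22.1%.

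**Figure D4:**
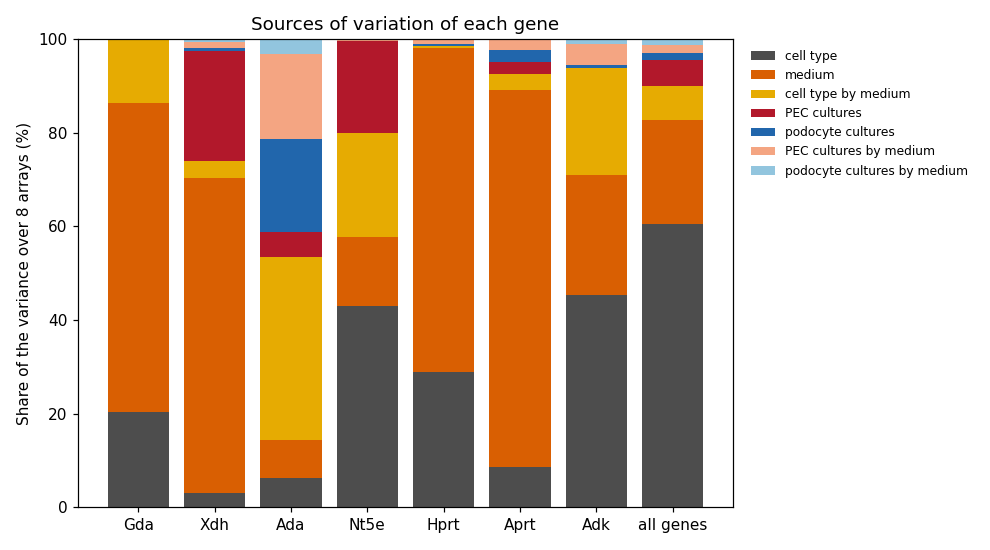
Share of each gene's variance over the 8 arrays (%) by source, with the shares of all genes together on the right. The medium is the largest source for Gda, Xdh, Hprt and Aprt, the cell type for Nt5e and Adk, and PEC cultures take 23.5% of Xdh and 19.5% of Nt5e.

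Genes with a profile like that of Gda were sought among the 2514 other genes with an SD over the arrays of at least 0.5 and a mean of at least 6 in some group. The highest correlation over the 8 arrays was that of ENSMUSG00000031431 (r = 0.997), with means in RPMI of 7.22 for PECs and 7.37 for podocytes, and in EGM-MV of 8.03 and 9.56. ENSMUSG00000031367 came next (r = 0.99), whose EGM-MV mean lay above its RPMI mean by 1.57 in PECs and 2.91 in podocytes. These identifiers were not paired with symbols. In all, 32 genes correlated with Gda above 0.95 and 89 above 0.9. Among the purine genes Xdh had the highest r with Gda (r = 0.67, Spearman's rho = 0.64) and Aprt the highest rho (r = 0.53, rho = 0.69), while Nt5e had r = 0.20 and rho = 0.26. Arrays that share cultures and media stand behind these correlations.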

How the data were processed

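Total RNA of 4 cultures, each kept in 2 media, was hybridised to 8 Affymetrix Mouse Gene ST arrays. The authors made the deposited log2 values with JMP Genomics, using probe sets redefined to give 1 value per Ensembl gene, RMA background correction, quantile normalization and a filter on outlying data points. The submitters' processing notes name RMA. Quantile normalization removes differences in total RNA, so changes are relative to other genes, and intensities carry no read depth: the number of arrays limits the precision.

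The normalized table held 22237 genes in columns named by cell type and medium. The series matrix table held 22215 of them with 1 column per labelled sample, and values differed by 0 at most. The first gave the fits, the second every value that needs a replicate number. Gene names are those of the list that defined the members, since the files and the reference table (GRCm38.p6) paired 0 identifiers with symbols. For this reason the lists of 70 other purine genes and 51 cell type markers were not tested. Members and lists were chosen with earlier results of these data known.

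Group means were fitted in limma 3.58.1 (R 4.3.3, lmFit and eBayes) over all 8 arrays, with 4 residual degrees of freedom. This fit has no term for the culture, so arrays of the same culture in different media count as independent. Podocytes against PECs rest on 2 cultures of each cell type. For that comparison the degrees of freedom overstate the independent replication. Calls had a Benjamini-Hochberg adjusted p below 0.05. SEs are those of this fit. SEs and p-values rest on the spread between replicate arrays, pooled over the 4 groups and moderated over all genes. Each cell type came from 1 mouse line. Where a group mean lay below 6 it was set to 6 for a fold, which is then a lower bound. Rules for named genes took all 7 members and, as genes like Gda, those with the highest r among genes with an SD of at least 0.5 and a mean of at least 6 in some group, 2 of them named by identifier. Alternatives were repeated quantile normalization, median centring, a filter on dim genes, the culture as a replicate block, the methods' t-test and leaving out each array. What is called the methods' t-test is an ordinary t-test on the fitted group means, adjusted within each comparison.

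Each culture number stands in the column names of both media, and per the methods 2 cultures of each cell type were kept in both. The replicate number was taken to pair media within a cell type, and was not matched to the culture numbers. Effects within single cultures and the replicate block rest on this pairing. The replicate difference correlated between media across genes at r = 0.53 in PECs and 0.07 in podocytes.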

Additional observations from a re-analysis of the deposited data

Results flagged for a closer look

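Gda stood out because its response to the medium differed between the cell types. The medium effect was 2.83 ± 0.14 larger in podocytes than in PECs (log2, SE), with effects of 4.60 and 4.52 in the 2 podocyte cultures and 1.84 and 1.61 in the 2 PEC cultures. The difference was called by limma over all 22237 genes, but Gda had been chosen by levels on these arrays, and which of them decided is not recorded. With the methods' t-test, which called 1 gene in all, it was not called.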

How the results depend on the processing

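Of 371 recomputed differences of the 7 genes, 133 could not move, since the setting left the group means as they were. Of the other 238, 225 kept their sign, and the 13 that turned belonged to differences that were not called. Repeated quantile normalization gave Gda levels of 5.12 in PEC RPMI and 9.98 in podocyte EGM-MV, a difference between cell types of 0.42 in RPMI, a medium effect of 4.45 in podocytes and an interaction of 2.66. Median centring gave 5.13 in PEC RPMI and 0.40 between cell types in RPMI. Either rescaling left 2 of 7 genes called for the medium in podocytes. With the culture as a replicate block, 4268 genes in all were called for the medium in PECs (2726 without it) and 1604 for the interaction (664 without it), with 2 of 7 purine genes in the latter. The block cannot be fitted for podocytes against PECs, since each culture is of 1 cell type. Beyond the calls of Xdh and Nt5e given above, it changed no other call of the 7 genes.

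By an ordinary t-test, with Benjamini-Hochberg adjustment within each comparison, 4070 genes were called between cell types in RPMI (2 of 7 purine genes). It called 358 for the medium in PECs (1 of 7), 1084 for the medium in podocytes (2 of 7) and 1 for the interaction (0 of 7). The methods name a post-hoc t-test after an analysis of variance, with an overall false discovery rate, so these counts are not the paper's. Leaving out 1 array, the purine genes called ranged from 2 to 4 between cell types in RPMI, 1 to 3 in EGM-MV, 4 to 5 for the medium in PECs, 1 to 5 in podocytes and 1 to 2 for the interaction. All genes called ranged from 4187 to 6502, 4432 to 7429, 1601 to 2353, 923 to 3365 and 149 to 651 in the same order. The lowest counts came without podocyte RPMI replicate 1 in the first and without podocyte EGM-MV replicate 1 in the others, shared with podocyte EGM-MV replicate 2 for the medium in PECs. Without podocyte RPMI replicates 1 or 2 or podocyte EGM-MV replicate 2, the medium in podocytes gave 1556, 1386 and 1200 genes and the interaction 224, 256 and 165. The Gda differences ranged from 0.27 to 0.38, 3.03 to 3.28, 1.60 to 1.85, 4.50 to 4.61 and 2.70 to 2.96. Its levels ranged from 5.16 to 5.18 in PEC RPMI, 6.77 to 7.02 in PEC EGM-MV, 5.44 to 5.55 in podocyte RPMI and 10.04 to 10.06 in podocyte EGM-MV. Among genes called between cell types in RPMI, 54.8% were higher in podocytes, and 65.9% after centring. Centring also moved the positive share of interaction genes from 49.5% to 37.0%. For the medium in PECs the share moved from 62.3% to 52.2% with repeated quantile normalization, and the other way, to 71.6%, with centring. The list of other purine genes could not be tested under any setting.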
